A study of Mus musculus with 2 samples.

Results

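The cells described here are C1q-positive macrophages of the mouse olfactory epithelium, a set of 176 of the 8298 kept cells in single-cell RNA sequencing of both sides of a nose with a single occluded nostril. A cell was a member when the transcripts of C1qa, C1qb and C1qc, the 3 chains of complement component C1q, together gave at least 5 unique molecular identifiers (UMIs, each standing for 1 captured RNA molecule). Members also had less than 0.3% of their UMIs from Cyp2g1 and Cyp2a5, which mark supporting and gland cells, and at most 1 UMI of the B cell receptor genes Cd79a and Cd79b. Because these measured values chose the members, they are given as a description and carry no support for anything else.

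The tissue came from a male C57BL/6 mouse in which a single naris was closed at postnatal day 14, and it was collected at postnatal day 28. The labels name an open and a closed side of this 1 mouse, each prepared as 1 library from cells that had been dissociated, frozen and passed through dead cell removal before droplet capture. Both sides therefore share the mouse, its strain, its age and its surgery, and neither is an untouched control. Barcodes in the deposited matrix end in 1 or 2 and no label ties an ending to a side, so the libraries are called library 2 and library 1 and no side is assigned. With 1 library per side there are no replicates, cells are not replicates, and no test was made. Intervals in parentheses are exact 95% intervals that cover counting error only.

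Macrophages are phagocytes that live in nearly every tissue, where they clear dying cells, sample antigens and secrete chemokines and trophic factors. They depend on signalling through the receptor Csf1r, which binds the ligands Csf1 and Il34, and they are a main source of C1q, the molecule that starts the classical complement cascade. In the olfactory epithelium, whose neurons die and are replaced throughout life, macrophages are known to enter the neuronal layers and to take up the debris of degenerating neurons.

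Promoter windows of 3 marker genes are shown because the leading genes of this cell type are often discussed as targets of PU.1 (encoded by Spi1), an ETS-family factor of myeloid cells. Each of the 3 windows is the 250 bases directly before the RefSeq gene (GRCm38.p6, the mm10 assembly), written 5' to 3' on the gene's strand. Capitals mark every AGGAAG or its reverse complement CTTCCT, 1 form of the site that ETS factors bind, called the core here. Other forms of the site were not counted, so a window without this string can still hold one. The C1qb window lies at chr4:136886201-136886450 on the minus strand, the Trem2 window at chr17:48346151-48346400 on the plus strand and the Ms4a7 window at chr19:11336147-11336396 on the minus strand. Gene coordinates given further on are those of GENCODE, whose C1qb gene starts 13 bases further in than the RefSeq gene, while the starts of Trem2 and Ms4a7 coincide.
C1qb: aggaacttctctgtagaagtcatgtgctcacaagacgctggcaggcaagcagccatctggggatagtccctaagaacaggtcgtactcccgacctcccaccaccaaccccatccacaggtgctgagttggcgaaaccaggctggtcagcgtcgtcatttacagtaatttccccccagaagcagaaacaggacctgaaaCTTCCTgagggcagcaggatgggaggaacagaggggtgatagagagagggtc
Trem2: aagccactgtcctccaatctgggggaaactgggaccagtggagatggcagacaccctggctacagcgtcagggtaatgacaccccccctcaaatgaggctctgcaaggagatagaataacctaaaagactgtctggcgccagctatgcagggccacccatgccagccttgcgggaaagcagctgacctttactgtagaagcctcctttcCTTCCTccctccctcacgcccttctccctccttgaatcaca
Ms4a7: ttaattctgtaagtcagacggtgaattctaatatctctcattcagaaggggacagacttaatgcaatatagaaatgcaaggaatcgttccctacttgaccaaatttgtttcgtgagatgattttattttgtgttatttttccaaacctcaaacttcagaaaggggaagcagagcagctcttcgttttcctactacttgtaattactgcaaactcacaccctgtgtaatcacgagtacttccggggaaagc
The core occurred once in the C1qb window (1 match), once in the Trem2 window (1 match) and not in the Ms4a7 window (0 matches). Where windows were counted over many genes, each was the 250 bases before a transcript start listed in RefSeq, which can lie inside the gene. Among the C1q genes and the 20 leading macrophage genes named further on, 16 of 23 had a window and 9 of those 16 held the core. It was present in 29.2% of 27025 windows taken 1 per gene and in 29.5% of all 32851 windows. The longer GAGGAAG (or CTTCCTC), which contains the core, was in the Trem2 window and in 10.6% of all windows, and the MAF-type TGCTGA (or TCAGCA) was in the C1qb window and in 16.1% of all windows. These are matches of letters and say nothing about binding.

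Library 2 held 5266 kept cells with 37996298 UMIs and library 1 held 3032 with 21444390 UMIs, out of 7990 and 4501 barcodes. The tissue was recognisable by its own cells, with 1523 kept cells at 5 or more UMIs of Omp, the marker of mature olfactory neurons, and 2010 with at least 1% of their UMIs from the supporting cell genes Cyp2g1 and Cyp2a5. Of all barcode sequences, 12 occurred in both libraries. The barcode of 1 macrophage was also present in the other library, and no pair of macrophages shared a barcode.

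Macrophages made up 2.15% of kept cells in library 2 (113 of 5266, interval 1.77 to 2.57%) and 2.08% in library 1 (63 of 3032, interval 1.60 to 2.65%). The intervals overlapped, and no difference in share was detectable at this depth. Macrophages of library 2 held 632366 UMIs in all, with a median of 4916 per cell and 1623 detected genes. Those of library 1 held 275170 UMIs, with a median of 3919 per cell and 1403 genes. The median mitochondrial share was 4.56% in library 2 and 4.11% in library 1. Another 46 barcodes met the gene rule but failed the filter of 1000 UMIs, 500 genes and 10% mitochondrial UMIs. Among kept cells with enough C1q transcripts, 7 were dropped for their Cyp genes and 7 more for Cd79a and Cd79b.

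The C1q transcripts were carried by few cells and in quantity. C1qb was found in all 176 members, C1qa in 174 and C1qc in 173. In macrophages of library 2 and of library 1, C1qa (chr4:136895917-136898803, minus strand) stood at 4787 and 6004 CPM (UMIs of the gene per 1000000 UMIs of its cells), C1qb (chr4:136880129-136886187, minus strand) at 4325 and 4859 CPM, and C1qc (chr4:136889804-136893065, minus strand) at 3681 and 4219 CPM. Macrophages held 92.5% of the C1qa UMIs of all kept cells, 91.0% of those of C1qb and 92.4% of those of C1qc. Of the C1q UMIs, C1qa gave 37.4% in library 2 and 39.8% in library 1, C1qb 33.8% and 32.2%, and C1qc 28.8% and 28%. In all other kept cells together, the 1069 C1q UMIs divided into 35.6% C1qa, 37.5% C1qb and 26.8% C1qc.

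Few cells lay near the threshold. Outside it, 8012 kept cells had no C1q UMI, 85 had 1, 7 had 2, 4 had 3 and none had 4. Inside it, 11 members had 5 to 9, 52 had 10 to 49 and 113 had 50 or more, up to 208. The 11 cells with 5 to 9 C1q UMIs differed from the rest of the members in other genes too. Csf1r was detected in 4 of these 11 cells, in 44 of the 52 with 10 to 49 UMIs and in 110 of the 113 with 50 or more, and Ms4a7 in 2, 34 and 112. Median Apoe, as a share of a cell's UMIs, was 0.0921% in the 11 cells, 4.45% in the 52 and 7.67% in the 113. In the 11 cells just outside the threshold, with 2 to 4 UMIs, it was 0.0422%, Csf1r was found in 1 and Ms4a7 in 0. Transcripts of another cell type (at least 3 UMIs of its markers, mixed cells) went with these ranges. They were found in 4 of the 11 members with 5 to 9 C1q UMIs, 10 of the 52 and 15 of the 113, and in 10 of the 11 cells just outside, and their part in the low values was not tested. Without mixed cells, median Apoe was 0.0921% in the 7 members left with 5 to 9 C1q UMIs, 5.13% in the 42 and 8.08% in the 98 above them, and Csf1r was found in 4 of 7, 40 of 42 and 96 of 98.

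Genes known from macrophages were higher in these cells than in the rest of the tissue. All 12 of the macrophage markers were at least 4 times as high as in the 8122 other kept cells in each library, where 9.92% of the 3940 genes tested were that much higher and 14.7% that much lower. Their median log2 ratio was 6.85, against -0.49 over all genes tested. Ms4a7 (chr19:11321039-11336146, minus strand), a membrane protein of monocytes and macrophages, stood at 1112 CPM (1031 to 1197) in macrophages of library 2 and 1261 CPM (1132 to 1401) in those of library 1, against 1.09 CPM in other kept cells. Trem2 (chr17:48346401-48354147, plus strand), a receptor for lipids and apoptotic cells, stood at 1074 and 1170 CPM, against 1.78 CPM. Csf1r, the growth factor receptor, stood at 818 and 1087 CPM, against 4.31 CPM, and Adgre1, which encodes the F4/80 antigen, at 297 and 320 CPM, against 1.26 CPM. The label of the set and its markers thus went together in these data.

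The 20 genes with the largest ratios to other kept cells, after leaving out the rule genes, were Fcrls, Ms4a7, Ccl12, Trem2, Cx3cr1, C3ar1, Gpr34, Csf1r, Stab1, Aif1, Adgre1, Ccl3, Ctss, Rgs1, Ccl4, Mrc1, Slamf9, Cd300c2, Ccl7 and Apoe. Fcrls (chr3:87250758-87263738, minus strand), an Fc receptor-like scavenger molecule best known from mouse microglia, stood at 683 CPM (620 to 751) in macrophages of library 2 and 1076 CPM (957 to 1205) in those of library 1. Other kept cells had 0.308 CPM, and macrophages held 97.6% of its UMIs. Apoe (chr7:19696109-19699188, minus strand), the lipid carrier, stood at 52988 CPM (52422 to 53559) in library 2 and 63266 CPM (62330 to 64213) in library 1, against 720 CPM in other kept cells. The 176 macrophages held 54.7% of all Apoe UMIs of the kept cells. The chemokine Ccl7 was less evenly spread than the others of these 20, since it was found in 25 macrophages and 3 cells held 63.3% of its UMIs in library 2 and 52.4% in library 1.

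**Figure D1:**
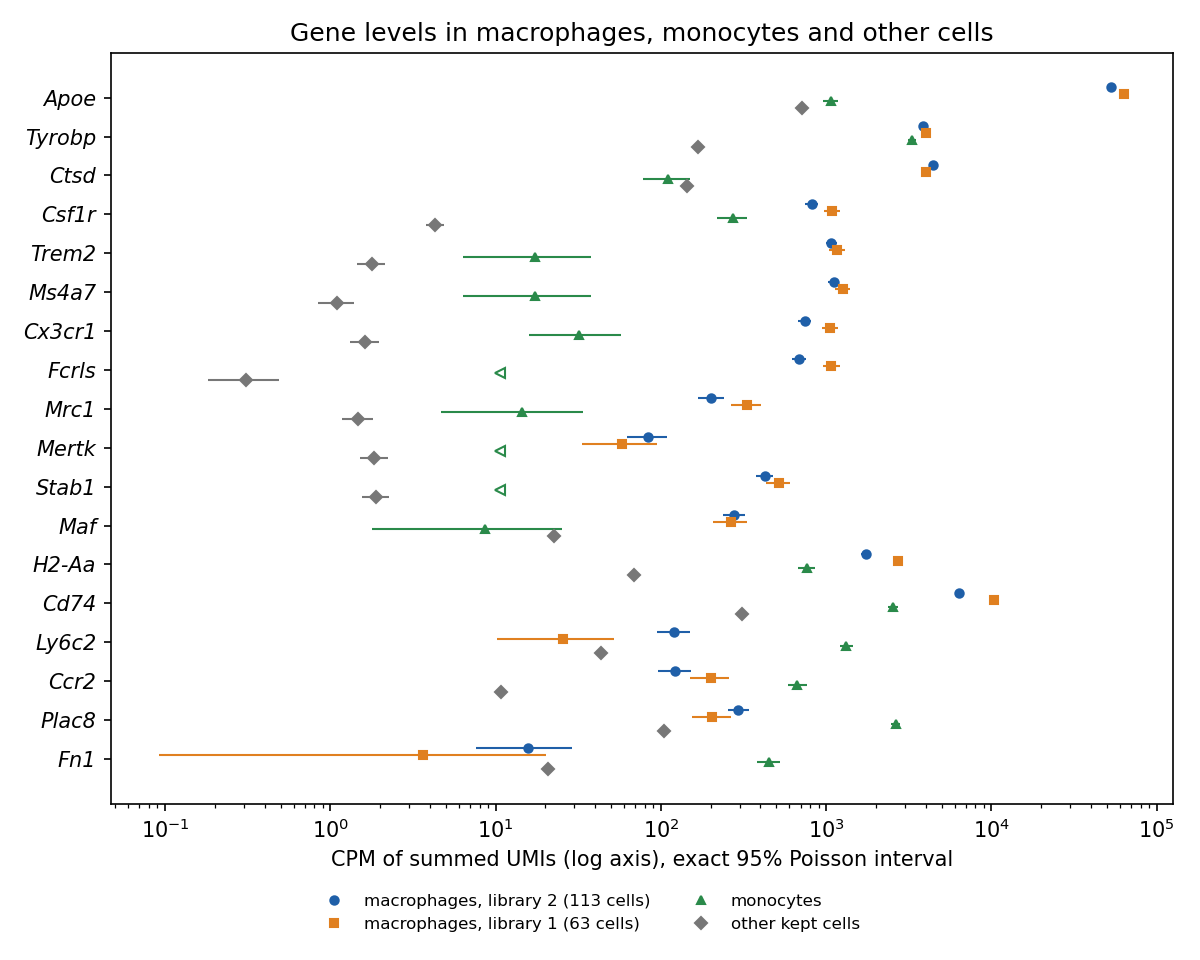
Levels of 18 genes in CPM on a log axis, with exact Poisson 95% intervals, in macrophages of library 2, macrophages of library 1, monocytes and other kept cells; an open triangle marks the upper limit where no UMI was found. Fcrls, Ms4a7 and Trem2 lie between 683 and 1261 CPM in macrophages of both libraries and at or under 1.78 CPM in other kept cells.

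The share of cells with a UMI gave the same contrast at equal depth. After thinning each cell to 2000 UMIs, which left out 14 macrophages, Csf1r was found in 77.2% of 162 macrophages (69.9 to 83.4%) and in 0 of 1507 olfactory neurons, which served as background and where a count of 0 allows up to 0.244%. Trem2 was found in 76.5% of the thinned macrophages, Ms4a7 in 71.0%, Cx3cr1 in 71.0%, Fcrls in 59.9%, Adgre1 in 46.3% and Mrc1 in 34.0%, all with 0.13% or less of neurons. Abundant transcripts were also found in neurons: Apoe was in 93.8% of macrophages and 4.51% of neurons, and Tyrobp in 98.8% and 1.92%, and the source of the neuronal UMIs was not tested. Without thinning, at a median of 4316 UMIs per macrophage and 5300 per neuron, the share with Csf1r was 89.8% of macrophages and 0.131% of neurons.

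Transcripts of neutrophils and olfactory neurons were concentrated in a minority of the members. Of the 176 macrophages, 29 had at least 3 UMIs from lists of neutrophil, T and NK, B lineage, erythroid or olfactory neuron genes. They were 23 in library 2 and 6 in library 1 and are called mixed cells. Gland and supporting cell genes are not part of this definition. The gland list had at least 3 UMIs in 43 macrophages and none in 70, and the supporting cell list at least 3 in 27 and none in 77. Cells called free of mixed transcripts can therefore still hold these. Neutrophil transcripts were in 11 (9 in library 2 and 2 in library 1), B lineage transcripts in 12 (8 and 4), olfactory neuron transcripts in 10 (9 and 1) and T or NK transcripts in 4 (4 and 0). In 6 of the 11 cells, neutrophil genes gave over 10% of the UMIs, up to 58.3%, and the 11 cells held 99.8% of the neutrophil-list UMIs of all macrophages. The summed neutrophil list stood at 48934 CPM in library 2 and 22150 CPM in library 1 with all macrophages, and at 103 and 70.4 CPM without the mixed cells. All 7 mast and basophil markers were at 0, as were 6 of 9 B lineage markers and the T cell receptor gene Trac. The rule had already removed cells with more than 1 UMI of Cd79a and Cd79b, so the low B lineage values are no independent observation. Mixed cells were kept, and several results that they moved are given with and without them. Other levels per library are for all macrophages and include what mixed cells contribute. The 7 rule genes together stood at 13013 CPM in library 2 and 15227 CPM in library 1 with all macrophages. Without mixed cells they stood at 16219 and 16488.5 CPM. The lipid handling list, which includes Apoe, stood at 56447 and 66279 CPM with all macrophages and at 70925 and 74707 CPM without mixed cells.

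Receptors and ligands of macrophage survival were split between cells. Csf1r is given above, while macrophages had 7.71 CPM of its ligand Csf1 (3.10 to 15.9) and no UMI of Il34 (0 to 4.06 CPM). Csf1 stood at 50.5 CPM in 160 cells with at least 5 UMIs of fibroblast genes, and Il34 at 31.3 CPM in the same cells. Cx3cr1, the fractalkine receptor, stood at 743 and 1058 CPM in macrophages of library 2 and library 1, and its ligand Cx3cl1 at 3.31 CPM in macrophages and 33.9 CPM (31.3 to 36.7) in the 2010 cells rich in Cyp2g1 and Cyp2a5, with 26.4 CPM (16.6 to 40.0) in the fibroblast-type cells and 26.9 CPM (15.9 to 42.5) in 127 cells with endothelial genes, whose intervals overlapped it. The receptor for Csf2 and related cytokines was represented by Csf2ra at 160 and 153 CPM and Csf2rb at 79.1 and 105 CPM. All 5 members of this list that were tested against other kept cells were at least 4 times as high in macrophages. In monocytes Csf2ra was at 211 CPM and Csf2rb at 148 CPM. The rules behind the fibroblast-type, endothelial and Cyp-rich classes, and other classes named below, were chosen after seeing the data.

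Genes for taking up dying cells were present, but not all of them. Of the 11 tested members of this list, 6 were at least 4 times as high as in other kept cells and 1 was that much lower. Axl, a receptor tyrosine kinase that binds phosphatidylserine through Gas6, stood at 255 and 305 CPM in macrophages of library 2 and library 1, against 8.95 CPM in other kept cells. Its relative Mertk stood at 83.8 and 58.1 CPM against 1.85 CPM, and the third kinase of the family, Tyro3, at 7.91 and 7.27 CPM against 243 CPM. The bridging ligand Gas6 was at 98.0 and 131 CPM in macrophages and 83.2 CPM in other kept cells, a log2 ratio of 0.37. Stab1, a scavenger receptor for phosphatidylserine, stood at 425 and 516 CPM against 1.88 CPM. Timd4, a phosphatidylserine receptor of several resident macrophage types, had no UMI in any macrophage (0 to 4.06 CPM).

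Lysosomal genes followed, with 15 of 19 at least 4 times as high as in other kept cells and none that much lower, and a median log2 ratio of 3.67. Ctsd, an aspartic protease, stood at 4414 CPM (4251 to 4580) in macrophages of library 2 and 4034 CPM (3800 to 4278) in library 1, against 144 CPM. Ctss, a cysteine protease that trims the invariant chain, stood at 2492 and 3303 CPM against 25.4 CPM. Lamp1, Lamp2, Ctsl and Cd63 were the 4 that stayed within the fold in at least 1 library, with log2 ratios of 1.63, 0.41, 0.73 and 2.04. Of the lipid handling list, 6 of 14 were at least 4 times as high, among them Apoe, Trem2, Abca1 (a cholesterol exporter, 288 and 273 CPM against 11.6 CPM) and Lpl (lipoprotein lipase, 127 and 87.2 CPM against 4.29 CPM).

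Complement genes other than C1q were mostly receptors and regulators. Of the 9 tested, 8 were at least 4 times as high as in other kept cells and 1, the inhibitor Cd55, was that much lower at 4.74 and 10.9 CPM against 65.5 CPM. C3ar1, the receptor for the C3a fragment, stood at 251 and 302 CPM against 0.461 CPM, and C5ar1, which binds C5a, at 74.3 and 138 CPM against 7.91 CPM. The central component C3 stood at 60.1 and 43.6 CPM against 11.3 CPM, and it was found in 18 macrophages. Neither C3 nor C5ar1 was highest in macrophages, since 313 cells with at least 5% of UMIs from S100a8 and S100a9 had 148 CPM of C3 and 236 CPM of C5ar1. Among Fc receptors and their adaptors, 7 of 8 were at least 4 times as high, including the inhibitory receptor Fcgr2b at 259 and 334 CPM against 7.47 CPM. The adaptor Tyrobp, which carries Trem2 signals, stood at 3852 and 4001 CPM against 168 CPM.

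Chemokine genes were strongly represented, with 11 of 15 at least 4 times as high as in other kept cells and a median log2 ratio of 4.85. Ccl3 and Ccl4, inflammatory chemokines, stood at 1520 and 3035 CPM in macrophages of library 2 and at 1992 and 2849 CPM in those of library 1, against 11.7 and 29.0 CPM in other kept cells. Ccl12, a mouse ligand of Ccr2, stood at 1010 CPM (934 to 1092) in library 2 and 1697 CPM (1547 to 1858) in library 1, against 1.98 CPM. Cxcl16, a membrane-bound chemokine, was at 509 and 512 CPM against 12.5 CPM and was found in 132 macrophages. Of the cytokines and growth factors, 9 of 9 were that much higher, among them Il1b (1586 and 2388 CPM against 92.1 CPM), Il1a (215 and 334 CPM against 3.66 CPM), Tnf (117 and 149 CPM against 4.39 CPM) and Igf1 (223 and 185 CPM against 3.11 CPM). The pooled level of Il1b does not show whether a class among the other kept cells, such as neutrophils, stood as high as macrophages. Il10 had 3 UMIs and Il6 had 4 in all macrophages, while Bdnf had 0.

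Antigen presentation genes were all higher than in the other kept cells pooled, 9 of 9 past the 4-fold line with a median log2 ratio of 4.86. The pooled level does not show whether a class among those cells, such as B lineage cells, stood as high as macrophages. Against the monocytes described below, 1 of 9 was past the 4-fold line (median log2 ratio 1.58). Without mixed cells in either class it was 0 of 9 (median 0.33). H2-Aa, a class II chain, stood at 1736 and 2726 CPM in macrophages of library 2 and library 1, against 69.1 CPM in other kept cells. Cd74, the invariant chain that guides class II molecules, stood at 6367 and 10335 CPM against 309 CPM. These genes were unevenly spread: after thinning, H2-Aa was found in 36.4% of macrophages and Cd74 in 54.9%, against 0.40% and 1.46% of neurons. The class II activator Ciita was at 9.49 and 29.1 CPM, under the floor for comparison.

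Receptors for microbial patterns and scavenged ligands gave 9 of 10 at least 4 times as high as in other kept cells. Cd14, a co-receptor for lipopolysaccharide, stood at 645 and 1025 CPM in macrophages of library 2 and library 1, against 35.1 CPM, Tlr2 at 187 and 247 CPM against 3.57 CPM, and the C-type lectin Clec4n at 269 and 309 CPM against 3.40 CPM. Marco, a scavenger receptor of alveolar macrophages, had no UMI. Of 6 tested interferon response genes, 3 were that much higher, among them Bst2 (tetherin, 859 and 923 CPM against 47.9 CPM), and Isg15, at 177 and 167 CPM against 41.5 CPM, was found in 25 macrophages and stood at 362 CPM in the endothelial cells. This list was not highest in macrophages, since it summed to 2361 CPM in them and 4664 CPM in the monocytes described below.

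Transcription factors of the myeloid lineage were detected, 8 of 14 of them at least 4 times as high as in other kept cells. Spi1 stood at 387 and 378 CPM against 33.4 CPM, Irf8 at 226 and 305 CPM against 15.9 CPM and Maf at 277 and 265 CPM against 22.4 CPM. Sall1, a regulator of microglia, had 1 UMI in all macrophages, against 24.7 CPM in other kept cells. Spic, a factor of red pulp macrophages, was in 20 macrophages, at 26.4 CPM over all of them.

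Markers of specialised macrophages were present for some types and missing for others. Of the microglia list, 6 of 7 tested genes were at least 4 times as high as in other kept cells, including Gpr34 (212 and 316 CPM against 0.376 CPM), P2ry12 (72.7 and 160 CPM against 0.427 CPM) and Tmem119 (144 and 171 CPM against 4.10 CPM); the seventh, Sparc, was lower. P2ry12 was found in 50 of the 176 macrophages and Tmem119 in 74, and Tmem119 was also at 227 CPM in the fibroblast-type cells. Of the resident macrophage list, 6 of 8 were that much higher, such as Mrc1 (the mannose receptor, 202 and 331 CPM against 1.47 CPM), Pf4 (757 and 690 CPM against 61.5 CPM) and Selenop (2097 and 2995 CPM against 63.9 CPM), and 1, Cbr2, was that much lower. Pf4 was not highest in macrophages, at 737 CPM in 105 cells, since 519 B lineage cells had 2169 CPM, with 99.8% of those UMIs in 3 cells. Lyve1, the hyaluronan receptor of vessel-associated macrophages, had no UMI, Folr2 was in 10 macrophages and Cd163 in 6. The iron genes Hmox1 (223 and 131 CPM against 11.6 CPM) and Slc40a1 (109 and 113 CPM against 3.01 CPM) were among the 5 of 6 red pulp list members past the fold. Ctsk, Atp6v0d2, Calcr and Oscar of the osteoclast list were at 0. The dendritic cell markers summed to 77.5 CPM in library 2 and 193 CPM in library 1, with Clec9a and Cd7 at 0 and Flt3 at 4 UMIs.

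The nearest cells of the same lineage were 58 monocytes, chosen by at least 2 UMIs of Ly6c2 and Ccr2, at least 1 of Csf1r and at most 1 of C1q, 42 of them in library 2 and 16 in library 1. A gene was counted where it was at least 4 times as high or as low in each library, with 50 CPM in the higher class and 30 UMIs. Macrophages were higher for 160 of 3099 genes (5.16%) and lower for 50 (1.61%), and the median log2 ratio over all of them was -0.32. Of the monocytes, 30 had at least 3 UMIs of another cell type, 27 with neutrophil transcripts and 1 with 42.8% of its UMIs from erythroid genes. The neutrophil list summed to 48934 and 22150 CPM in macrophages of library 2 and library 1 and 41743 CPM in monocytes, and its part in the comparison is given through the values without mixed cells.

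The genes with the largest ratios to monocytes included scavenger receptors, a growth factor and chemokines. Fcrls, Stab1, Slamf9, Igf1, Olfml3, Syngr1, Pld3, Cd72, Slco2b1, Mmp12, Mgl2, Itga6 and Ltc4s had no UMI in the 345228 monocyte UMIs. Against a floor of 3 UMIs over all monocytes, Fcrls was at least 92.3-fold higher in macrophages, Stab1 at least 52.1-fold, Slamf9 at least 25.2-fold, Igf1 at least 24.3-fold and Olfml3 at least 23.6-fold. Syngr1, Pld3, Cd72, Slco2b1, Mmp12, Mgl2, Itga6 and Ltc4s were at least 12.8-fold to at least 21.8-fold higher. Mmp12, a macrophage elastase, was in 12 macrophages, and 3 cells held 96.7% of its UMIs in library 2 and 84.5% in library 1. Ccl12 stood at 1219 CPM in all macrophages and 2.90 CPM in monocytes, where it had 1 UMI, and Pf4, a platelet factor that macrophages also make, at 737 CPM against 5.79 CPM from 2 UMIs.

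By list, 6 of 6 tested microglia genes were past the 4-fold line in macrophages, with a median log2 ratio of 5.31, or 4.6 with genes without monocyte UMIs set at their bound. The macrophage markers gave 6 of 11 (median 3.66, or 3.13 at the bound) and the resident macrophage list 6 of 9, with F13a1, a coagulation factor of monocytes and some macrophages, lower at 20.9 CPM against 362 CPM. Lysosomal genes gave 8 of 19, all 19 above 0 (median 1.90), with Ctsd at 4414 and 4034 CPM in macrophages of library 2 and library 1 against 110 CPM in monocytes and the tetraspanin Cd63 at 1036 and 952 CPM against 26.1 CPM. Chemokines gave 9 of 15 higher (median 2.78) and 1 lower, Ccl6, at 90.1 and 102 CPM against 678 CPM. Lists with medians near 0 included complement (1 of 8, median 0.21), Fc receptors (0 of 8, median 0.04) and transcription factors (2 of 14, median 0.28). With cells weighted equally instead of by UMIs, the medians of those 3 lists were -0.13, -0.32 and -0.11, so they carry no direction. Interferon response genes gave 2 of 7 higher and 1 lower (median -0.15, and -1.29 with 5 of 7 below 0 without mixed cells in either class). Antigen presentation gave 1 of 9 (median 1.58), and 0 of 9 (median 0.33) without mixed cells in either class. The pattern and scavenger receptors gave 3 of 11 higher and 1 lower (median 0.62, and 0.36 without mixed cells in either class). The 2 transcription factors past the fold were Maf (277 and 265 CPM against 8.69 CPM) and Cebpa (171 and 356 CPM against 37.7 CPM), whereas Spi1 stood at 387 and 378 CPM in macrophages and 600 CPM in monocytes. Without mixed cells in either class the medians were 4.40 for the microglia list (6 of 6 past the fold) and 2.50 for the macrophage markers (5 of 11). They were 1.31 for the lysosomal list (7 of 19, all 19 above 0) and 2.12 for the 15 chemokines (8 of the 14 still tested).

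**Figure D2:**
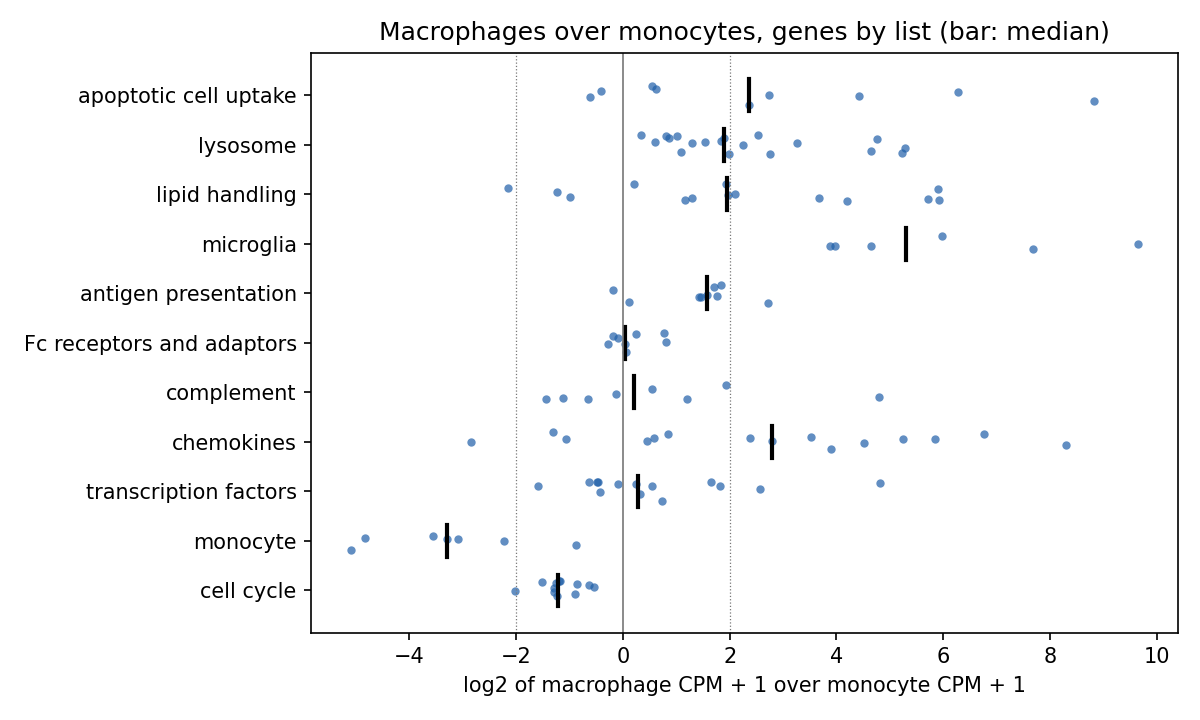
Log2 ratio of CPM (1 CPM added) of macrophages over monocytes for the genes of each list, each point a gene, bars the list medians and dotted lines the fold of 2 on the log2 scale. All 6 tested microglia genes and all 19 lysosomal genes lie above 0, and all 7 tested monocyte genes below.

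The genes that were lower in macrophages included Fn1, Ctsg, Itgb7, Hopx, Cd209a, F13a1, Mmp8, Emilin2, F10, Gpr141, Slpi, Plac8, Glipr2 and Rara. Fn1, fibronectin, stood at 12.1 CPM in macrophages and 449 CPM in monocytes, and Plac8 at 267 CPM against 2642 CPM. Of the monocyte list, apart from the rule genes, 5 of 7 were past the fold (median -3.30). Ctsg, a protease of granulocyte precursors, stood at 11.0 CPM against 348 CPM, with 76.7% of its monocyte UMIs in 3 cells. Without the mixed macrophages alone, 108 genes were lower instead of 50. Without mixed cells in either class, the count of genes was 170 higher and 52 lower of 2800, and Ctsg alone of the 30 genes with the largest ratios (15 in each direction) changed direction (log2 ratio 2.02, from 2 UMIs in macrophages and 0 in monocytes), so no direction is given for it. Cell cycle genes gave 0 of 12 past the fold in either direction, with all 12 ratios below 0 (median -1.22). Mixed cells held 250 of the 326 mitotic UMIs of macrophages and 263 of the 272 of monocytes. Without mixed cells in either class the median was 1.5, with 9 of 12 ratios above 0, so the cell cycle genes carry no direction in this comparison.

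Within the macrophages, levels per cell covered a wide range. Apoe made up a median of 5.75% of a cell's UMIs in library 2 (0 to 21.8%) and 6.66% in library 1 (0 to 27.5%). The antigen presentation list had medians of 0.475% and 0.822% and reached 10.4% in library 2 and 9.31% in library 1. The lysosomal list had medians of 1.95% and 2.34%, with maxima of 7.87% and 5.88%. For each of these lists the cells of both libraries overlapped over nearly the whole range.

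**Figure D3:**
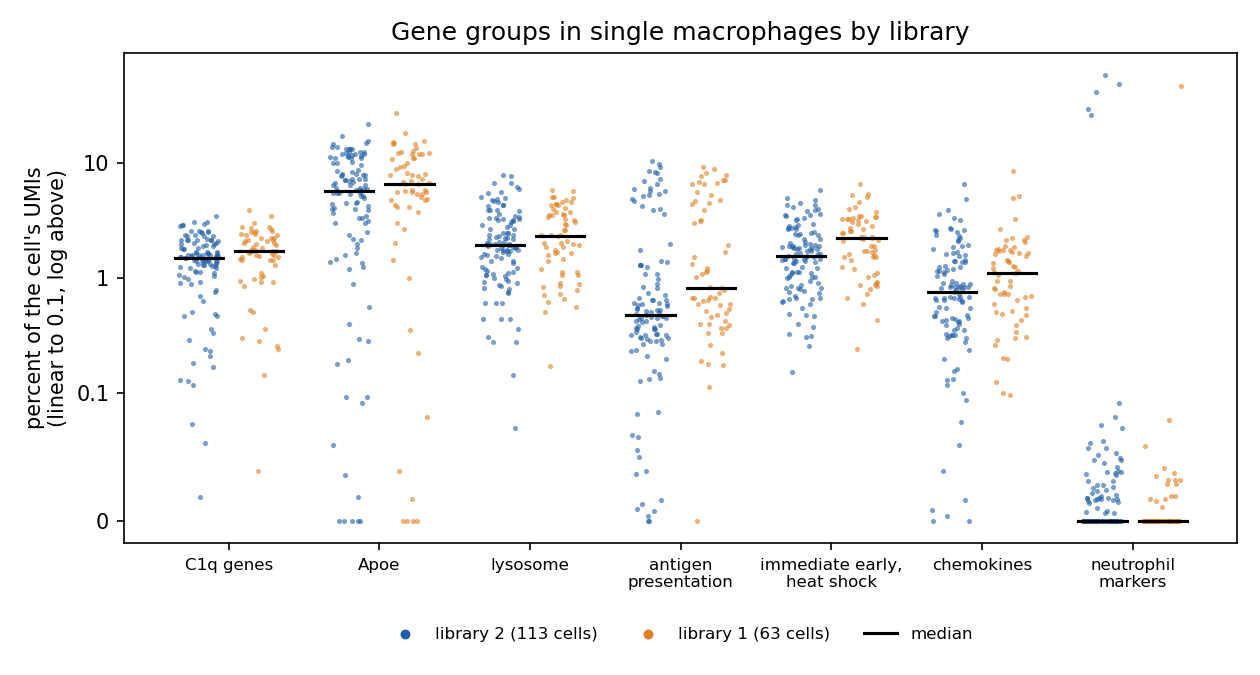
Percent of a cell's UMIs from a gene or list, each point a macrophage, library 2 left of library 1, bars the medians. The cells of both libraries overlap for every quantity, and the neutrophil list is at 0 in most cells and reaches 58.3% in 1 of them.

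Cells with more monocyte transcripts had fewer of the microglia, resident and lipid handling transcripts. No UMI of the monocyte list was found in 116 of the 176 cells, which are tied in its correlations. Mixed cells are included unless stated. Over the 176 cells, the Spearman correlation of list shares was -0.62 between the monocyte and microglia lists (-0.63 in the 113 cells of library 2 and -0.66 in the 63 of library 1), -0.63 between monocyte and resident macrophage lists (-0.62 and -0.66) and -0.62 between monocyte and lipid handling lists (-0.64 and -0.61). The microglia list went with the lysosomal list (0.71; 0.66 and 0.77) and with the lipid handling list (0.75; 0.74 and 0.79), genes shared by both lists being left out. Antigen presentation went against the resident list (-0.40; -0.31 and -0.58). Without the 29 mixed cells that correlation was -0.63. The chemokine list went with the immediate early and heat shock list (0.45; 0.48 and 0.33). These are descriptions over cells that share 2 libraries, the same dissociation and unequal depths, and shares of a fixed total are tied to each other.

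A range of cells with abundant class II transcripts was set apart after seeing the data, at 2% or more of UMIs from the antigen presentation list. It held 43 macrophages, 22 of 113 in library 2 (19.5%, 12.6 to 28%) and 21 of 63 in library 1 (33.3%, 22.0 to 46.3%), with overlapping intervals. Near the cut, between 1 and 3%, lay 19 cells. These 43 cells had 1.45% of their UMIs from C1q at the median, against 1.58% in the other 133. They had less Apoe (median 2.70% against 7.07% of UMIs), less Fcrls (85.9 CPM against 1033 CPM) and less Ctsd (534 CPM against 5512 CPM). They had more Il1b (4997 CPM against 809 CPM) and more Ccr2 (484 CPM against 36.4 CPM). Igf1 stood at 13.6 CPM against 275 CPM and Pf4 at 176 CPM against 918 CPM. Ccl17 and Ccl22, chemokines also made by dendritic cells, stood at 362 and 131 CPM in the 43 cells and at 0 in the 133, but 3 cells held 88.8% and 96.6% of their UMIs. Of the defining dendritic cell genes, Flt3 had 3 UMIs (13.6 CPM, 2.80 to 39.6) and Ccr7 had 2 (9.04 CPM) in the 43 cells. In the 133, Flt3 had 1 UMI (1.46 CPM, 0.0369 to 8.12) and Ccr7 had 0. These counts are too low to compare, and the part of dendritic cells in the range was not tested. Mixed cells were 3 of the 43 and 26 of the 133.

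A split by the monocyte list, also made after seeing the data, set apart 26 macrophages without mixed transcripts that had at least 3 of its UMIs. Of these, 22 (9 of 13 in library 2 and 13 of 13 in library 1) were also among the 43, so both splits describe largely the same cells. They were 13 of 90 such cells in library 2 (14.4%) and 13 of 57 in library 1 (22.8%), with overlapping intervals. Their median Apoe was 0.255% of UMIs, against 7.78% in the other 121, and their antigen presentation list was 5.87% against 0.583%. Fcrls stood at 20.9 CPM against 1236 CPM and Csf1r at 446 CPM against 1281 CPM. C1q gave 0.718% of their UMIs against 1.76%. Ly6c2 stood at 167 CPM against 0 CPM and Plac8 at 1053 CPM against 0 CPM, as the split itself selects, and 3 cells held 100% of the 24 Ly6c2 UMIs and 84.8% of those of Plac8.

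Between the libraries, most macrophage genes lay within a 2-fold ratio. Genes were compared where the higher library had 50 CPM or more and all macrophages had 30 UMIs or more. Of these 2877 genes, 113 (3.93%) were at least 2 times as high in library 2 and 88 (3.06%) at least 2 times as low, and the median log2 ratio of library 2 over library 1 was 0.0004. None of the 12 macrophage markers and none of the 19 lysosomal genes was past this fold, with medians of -0.15 and -0.09. Without mixed cells these medians were -0.06 and 0.07, with 12 of the 19 lysosomal genes above 0 instead of 6. The median of the 8 resident macrophage genes tested was -0.35 with all cells and 0.08 without mixed cells, so these lists carry no direction between the libraries. Without the 29 mixed cells, 88 genes were higher and 44 lower of 2605. Of the genes called with all cells, 33 higher and 33 lower ones were also called without the mixed cells.

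Of the antigen presentation genes, none was past the fold, but 9 of 9 had log2 ratios below 0, with a median of -0.56. Cd74 stood at 6367 CPM (6171 to 6566) in library 2 and 10335 CPM (9959 to 10722) in library 1, H2-Eb1 at 2744 and 4226 CPM, and H2-Aa at 1736 and 2726 CPM. Without mixed cells the median was -0.32 with 8 of 9 below 0, and in the other kept cells the same genes had a median of 0.03. The microglia list also had 7 of 7 below 0 (median -0.61, and -0.43 without mixed cells, again 7 of 7), against 0.15 in other kept cells. P2ry12, a purinergic receptor, was past the fold at 72.7 CPM (53.3 to 97.0) in library 2 and 160 CPM (116 to 215) in library 1, and its relative P2ry13 at 31.6 and 80.0 CPM. The neutrophil list that moved with the libraries, at 48934 and 22150 CPM, stood at 103 and 70.4 CPM in the cells without mixed transcripts.

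Immediate early and heat shock genes, which dissociation is known to induce, had ratios below 0 for 15 of 16 genes (median -0.52), with none past the fold. Fos stood at 2949 and 3892 CPM in macrophages of library 2 and library 1, Jun at 1270 and 1995 CPM, and Atf3 at 1033 and 1599 CPM. Without mixed cells 12 of 16 were below 0 (median -0.24), and with cells weighted equally 14 of 16 (median -0.38). In the other kept cells, 15 of 16 were also below 0 (median -0.39). The lower values in library 2 were thus present in both sets of cells. Egr2, an immediate early transcription factor, was the leading gene lower in library 2, at 26.9 CPM (15.7 to 43.0) against 83.6 CPM (53.0 to 125), and was within the fold without mixed cells, at -0.89.

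Chemokines differed in both directions and often through few cells. Ccl5, Ccl8, Ccl9, Ccl17, Cxcl2 and Cxcl10 were lower in library 2 and Cxcl9 was higher, of 15 tested (median -0.39, and -0.17 without mixed cells). Cxcl2, a neutrophil attractant, stood at 606 CPM (547 to 669) in library 2 and 1276 CPM (1146 to 1416) in library 1, was found in 56 cells and had a log2 ratio of -1.07, or -1.61 without mixed cells. Ccl17 stood at 6.33 and 276 CPM but was in 6 cells, 3 of which held 93.4% of its UMIs in library 1. Ccl22 had no UMI in library 2 and 105 CPM in library 1, at least 22.2-fold higher in library 1 against a floor of 3 UMIs in library 2, from 4 cells. Cxcl9, induced by interferon gamma, stood at 188 and 36.3 CPM and was in 9 cells. Ccl8 and Ccl9 were within the fold without mixed cells, at 0.22 and -0.17. Cxcl10 stood at 153 and 385 CPM with all cells, in 19 of them, and at 215 and 431 CPM without mixed cells, just within the fold.

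Single genes that differed included Irf1, a transcription factor of the interferon response, at 56.9 CPM (39.9 to 78.8) in library 2 and 160 CPM (116 to 215) in library 1, and Dusp2, a phosphatase, at 66.4 and 185 CPM. Cebpa stood at 171 and 356 CPM, a log2 ratio of -1.06, or -0.86 without mixed cells, and Havcr2, an inhibitory receptor, at 33.2 and 87.2 CPM, with -1.37, or -0.97 without them. Stap1, Cd38, Ptpro, Ccdc88a, Slc25a17, Cacna1d and Nrp1 completed the 10 leading genes lower in library 2, with log2 ratios between -1.48 and -1.37. Higher in library 2 were Runx3, a transcription factor, at 103 and 43.6 CPM, and Fcgr4, an activating Fc receptor, at 72.7 and 29.1 CPM. Spp1, which encodes osteopontin, stood at 432 and 145 CPM and was found in 41 cells, with a median of 0 per cell in both libraries. In the 133 cells under 2% of UMIs from the antigen presentation list, 3 cells held 52.2% of the Spp1 UMIs. Gpnmb, a glycoprotein of lipid-laden macrophages, had 85.4 CPM in library 2 and none in library 1, at least 7.83-fold higher, but was in 9 cells, 3 of which held 79.6% of its UMIs.

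**Figure D4:**
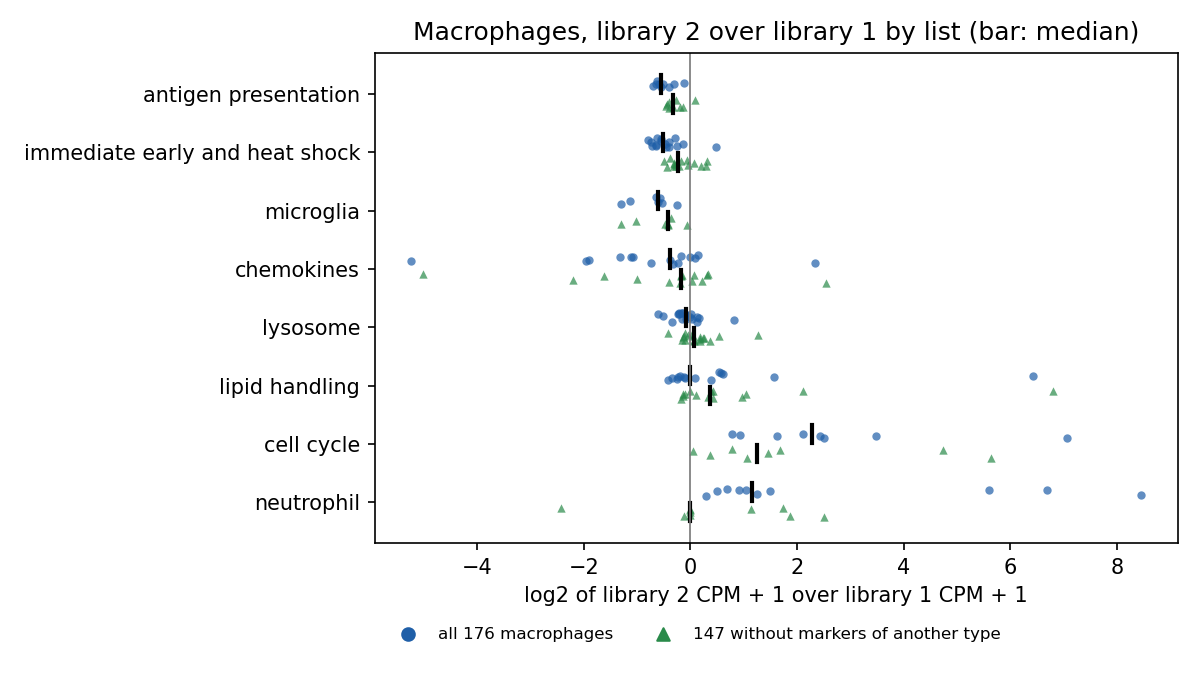
Log2 ratio of CPM (1 CPM added) of library 2 over library 1 in macrophages for the genes of each list, with all 176 cells and with the 147 cells left after removing mixed cells. Bars are list medians and the vertical line marks 0. Antigen presentation genes lie below 0 in the full set, cell cycle genes above 0 in both sets, and the neutrophil median is 1.15 with all cells and 0.00 without mixed cells.

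Cell cycle genes were higher in macrophages of library 2, 6 of 8 past the fold with a median log2 ratio of 2.28. Top2a, a topoisomerase of dividing cells, stood at 103 CPM (79.3 to 131) in library 2 and 18.2 CPM (5.90 to 42.4) in library 1, and Cenpa, a centromere histone, at 130 and 29.1 CPM. Birc5, an inhibitor of apoptosis active at mitosis, had 58 UMIs in library 2 and 2 in library 1, or 91.7 CPM (69.6 to 119) and 7.27 CPM (0.88 to 26.3). Few cells carried these transcripts: 12 of 176 had at least 3 mitotic UMIs, 11 of 113 in library 2 (9.73%, 4.96 to 16.8%) and 1 of 63 in library 1 (1.59%, 0.0402 to 8.53%), and the intervals overlapped. Mixed cells were 9 of those 12. Without mixed cells all 8 ratios remained above 0, with a median of 1.26, and Stmn1 was at 0.04. In other kept cells the same genes had a median of 0.45. Smc2, Usp1, Timm50, Nampt, Arhgef6, Srrt and Ckap4 were the other leading genes higher in library 2, with log2 ratios of 2.36, 1.90, 1.82, 1.81, 1.78, 1.71 and 1.63. These ratios are for all cells. Of the leading genes between the libraries (10 in each direction), 14 stayed past the fold without mixed cells and 6 fell within it.

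Transcripts of nasal glands were also found in macrophages. Obp2a, an odorant-binding protein of nasal glands, stood at 209 CPM in macrophages of library 2 and 3.63 CPM in those of library 1, while the other kept cells had 4054 and 36.2 CPM. The gland transcript Bpifa1 stood at 74.3 and 407 CPM in macrophages, with 96.4% of its library 1 UMIs in 3 cells, against 7406 and 7148 CPM in other kept cells.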

How the data were processed

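Cells of 1 mouse were captured with the Chromium 3' v3 kit, per the labels, and Cell Ranger 3.0.2 and mm10 are named in the submitters' processing notes. The authors deposited a raw UMI count for each of 31053 genes in 12491 barcodes. The sources used here do not say whether joining the libraries equalised their depth. Cells were kept at 1000 UMIs, 500 genes and at most 10% mitochondrial UMIs. No doublet caller was run; mixed cells were marked and left out in an alternative.

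UMIs were summed by cell class and library and scaled to CPM, and ratios are log2 after adding 1 CPM. Summed levels depend on depth, so intervals are exact Poisson for CPM and exact binomial for shares. Scripts were tested on simulated data and used scipy 1.17.1, pandas 2.3.3, numpy 2.4.6 and matplotlib 3.10.9 under Python 3.11.15.

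The macrophages, the 33 gene lists and the folds were chosen with earlier results of these data known. Named genes were list members, the 20 largest ratios to other kept cells, the 15 largest to monocytes in each direction, and the 10 largest between libraries in each direction. The last had at most 50% of the higher library's UMIs in 3 cells and at least the level of other kept cells. The list symbols Clec7a, Ly6a2 and Ahsp were not analysed here, and some genes that count in the lists and the rule are not reported here by name.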

Additional observations from a re-analysis of the deposited data

How the results depend on the processing

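Alternatives were another C1q minimum (3 or 10 UMIs), no cell filter, 2500 UMIs, 5% mitochondrial UMIs, mixed cells left out, 5 CPM added, other totals, cells weighted equally, no floor on levels and other thinning depths. Leaving mixed cells out of monocytes too was added after seeing the data. Of the values that answer a comparison, 102 alternatives stayed within the spread set for them and 32 moved. Single genes were the leading genes of each comparison, counted once per alternative, so each gene enters several times. Of these pairs of a gene and an alternative, 720 kept direction and side of the fold and 9 fell within the fold. The remaining 1, Ctsg in macrophages over monocytes, reversed to a log2 ratio of 2.02, resting on 2 UMIs in macrophages.

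At 5% mitochondrial UMIs, macrophages were 2.76% of library 2 and 3.0% of library 1; without mixed cells they were 1.71% of library 2. Without mixed macrophages, 44 genes were lower in library 2 than in library 1, and 108 lower in macrophages than in monocytes. With mitochondrial, ribosomal and rule genes out of the total, 174 genes were higher in library 2. Without floors the counts were 3580 higher and 1352 lower for the libraries, 929 and 158 against monocytes, and 644 and 2198 against other kept cells; this alternative admits genes with a few UMIs.

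Without thinning, macrophages with a UMI were 89.8% for Csf1r, 84.1% for Ms4a7, 66.5% for Adgre1, 50% for Mrc1, 77.8% for Cx3cr1 and 69.3% for Fcrls. Thinned to 1000 UMIs they were 60.2% for Csf1r, 61.4% for Trem2, 60.8% for Ms4a7, 93.2% for Tyrobp, 34.7% for Adgre1, 23.3% for Mrc1, 48.3% for Cx3cr1, 47.7% for Fcrls, 29.0% for H2-Aa, 46.6% for Cd74 and 9.66% for Ccr2, so these shares follow depth. With 10 C1q UMIs Ms4a7 was at 80.1%. Without mixed cells, antigen presentation correlated at -0.63 with the resident list and 0.56 with the monocyte list. Where no cause is named, the cause was not tested.

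No paired analysis was possible because each side has 1 library, which also allows no library to be left out. The 63 macrophages of library 1 hold 275170 UMIs, which limits what can be seen of genes at low levels.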
